A study of Rattus norvegicus with 6 samples.

Results

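The 10 genes described here carry signals made of purines and of nicotinamide adenine dinucleotide (NAD): the NAD-consuming enzyme gene Cd38, the NAD salvage gene Nampt, the enzyme genes Entpd1 and Ada, the adenosine receptor genes Adora2a, Adora2b and Adora3, and the nucleotide receptor genes P2rx4, P2rx7 and P2ry6. They were chosen by name from the 23139 genes listed in each library, and all 10 were present. Of these, 8 passed the filter on low counts and were tested among 11977 genes, while Adora2b and Adora3 did not pass. The samples were primary microglia from cortices of Wistar rats at postnatal day 1, grown in mixed culture for 10 days, shaken off and collected after 2 and 24 h, and enriched with magnetic beads against CD11b/c. One day later they received 100 ng/mL lipopolysaccharide (LPS) with the solvent DMSO (LPS, n = 3) or 100 ng/mL LPS with 50 µM siponimod (LPS/siponimod, n = 3). Siponimod is a modulator of the sphingosine-1-phosphate receptors S1PR1 and S1PR5 that is used in multiple sclerosis. All 6 libraries therefore come from LPS-stimulated cells, libraries without LPS were not analysed here, and each value below compares the condition with siponimod to the one without it. Total counts were 39484979, 38301365 and 38080379 for LPS and 46643859, 43336006 and 38857441 for LPS/siponimod.

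Adenosine triphosphate (ATP) and uridine nucleotides that leave stressed or dying cells act on neighbouring cells through ion channels of the P2X family and G protein-coupled receptors of the P2Y family. Ectoenzymes trim these nucleotides to adenosine, which acts on its own receptors until it is taken up, phosphorylated or deaminated. NAD is rebuilt from nicotinamide by salvage and is consumed by ADP-ribosyl transferases, sirtuins and the ectoenzyme CD38. In microglia, receptors of this system are known for steering processes towards injury, for engulfment of debris and for inflammasome activation.

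The labelled cell type was compared with its markers before the genes were described. All 11 microglial markers had counts in every library, with summed levels of 8214, 7080 and 5063 CPM (counts scaled to TMM-adjusted library size) in LPS and of 4323, 5194 and 3430 CPM in LPS/siponimod. The sum was lower with siponimod within every same-numbered pair. Of these markers, Aif1, Itgam and Cx3cr1 were called lower (log2 FC -1.88, -0.87 and -3.65; adjusted p = 0.0212, 0.0112 and 0.0392, edgeR quasi-likelihood test), whereas Cd68 had a log2 FC of 0.00. In bulk RNA, fewer cells of a type and less RNA per cell cannot be told apart.

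Both libraries numbered 3 stood apart by genes of other neural cells. The 9 oligodendrocyte lineage markers summed to 5.37, 5.37 and 36.0 CPM in LPS and to 11.4, 10.3 and 22.6 CPM in LPS/siponimod. Mbp was the most abundant on average and was itself called higher with siponimod by edgeR (adjusted p = 0.0172 at a log2 FC of 1.74), whereas in LPS replicate 3 Olig1 led. Olig1 had 1, 5 and 515 counts in LPS and 2, 3 and 17 counts in LPS/siponimod. The 8 neuronal markers, led by Tubb3, summed to 1.73, 1.04 and 11.5 CPM in LPS and to 6.41, 9.21 and 17.2 CPM in LPS/siponimod. The third library of each condition held the highest sums of both lists, and the neuronal sum was also higher with siponimod in every pair. Among its genes Snap25, of the presynaptic fusion machinery, had 0, 1 and 1 counts in LPS and 94, 153 and 81 counts in LPS/siponimod and was called higher (adjusted p = 0.00539, edgeR quasi-likelihood test). Of the 8 genes only Tubb3 and Snap25 were higher in every pair. Map2 had 0, 3 and 162 counts in LPS and 1, 1 and 115 counts in LPS/siponimod. Rbfox3, Syt1, Nefl, Gad1 and Slc17a7 had at most 11 counts in a library. The 7 astrocyte markers, led by Slc1a3, summed to 42.2, 20.9 and 20.5 CPM in LPS and to 27.3, 26.4 and 56.9 CPM in LPS/siponimod, with Gjb6 at 0 throughout. Lymphocyte markers, led by Cd8a, stayed between 0.699 and 2.75 CPM, with Cd3e and Cd3g at 0 in every library. Markers of fibroblasts and endothelium, led on average by Cdh5, summed to 160, 206 and 85.3 CPM in LPS and to 47.8, 82.4 and 32.8 CPM in LPS/siponimod. Against this sum, the fibroblast marker Dcn had 3, 0 and 4 counts in LPS and 456, 49 and 178 counts in LPS/siponimod and was called higher (adjusted p = 0.0155, edgeR quasi-likelihood test). The part of these cells in the results below was not tested, and values without both libraries numbered 3 are given where the call of 1 of the 10 genes changed, and as counts for the wider list.

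Of the 8 tested genes, 3 (Cd38, P2ry6 and Ada) were called lower in LPS/siponimod, and 11.7% of all tested genes were called lower by the same rule. A gene was called differentially expressed (DEG) if its p adjusted after Benjamini-Hochberg over 11977 genes did not exceed 0.05 in edgeR's quasi-likelihood test and it changed by 1.5-fold or more. None was called higher (0 of 8, against 13.6% of all tested genes), and 0 of the other 5 had an unadjusted p under 0.05. The number called higher was 0 with DESeq2 as well. The libraries of the conditions did not overlap for the same 3 genes, with LPS higher, which was so for 24.0% of all tested genes (49.3% in either direction). The same-numbered pairs all had 1 sign for 5 of the 8 genes, against 70.8% of all tested genes. The median log2 FC was -1.04 over the 8 genes and -0.02 over all tested genes. A fit that blocked on replicate number called Entpd1 lower as well, which made 4 genes against 16.4% of all tested genes.

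**Figure D1:**
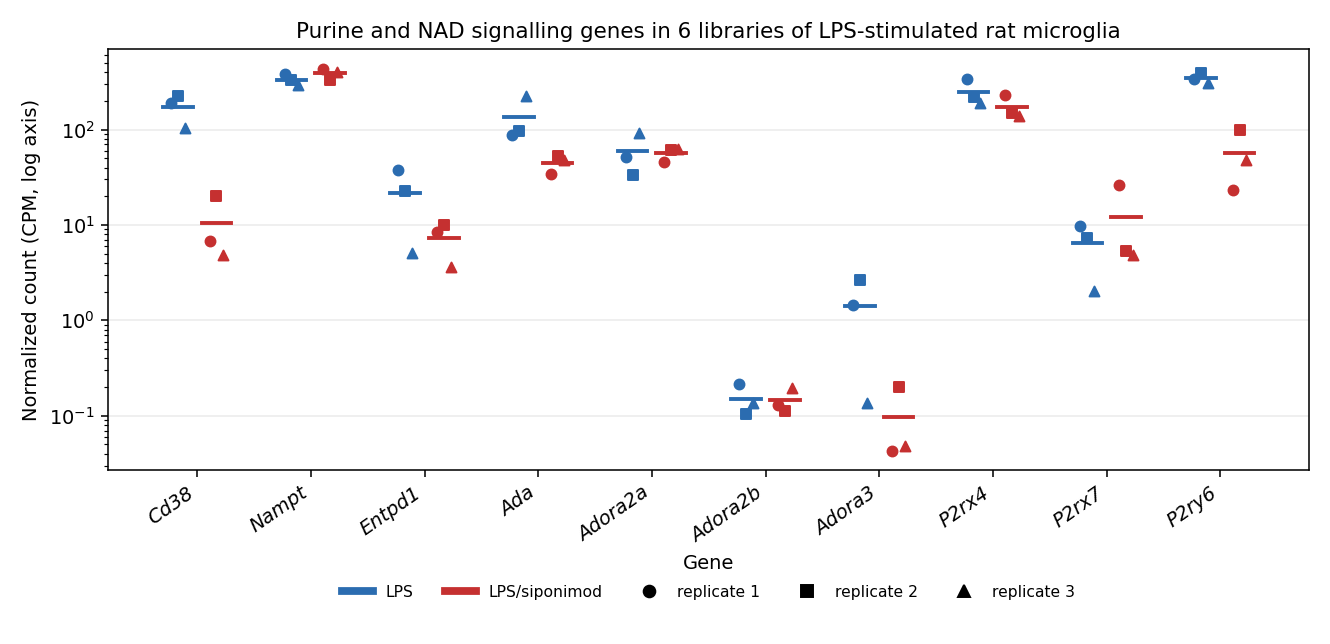
Level of each of the 10 genes in CPM (log axis) in the 3 LPS and 3 LPS/siponimod libraries, with 1 point per library, a marker shape per replicate number and a line at the mean of each condition. Cd38, P2ry6 and Ada show separate groups, and Adora2b lies near 0.1 CPM in both.

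**Figure D2:**
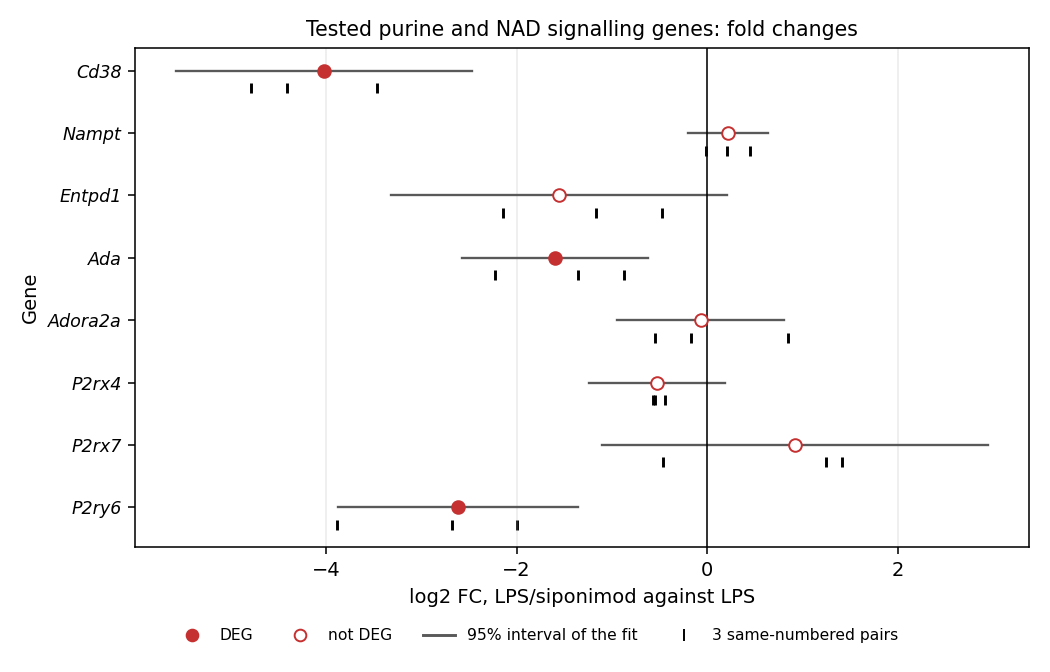
Log2 FC of LPS/siponimod against LPS for the 8 tested genes with 95% intervals, filled where the gene was called, and ticks for the 3 same-numbered pairs. The intervals of Cd38, P2ry6 and Ada lie below 0, while those of the other 5 include 0.

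Cd38 encodes an ectoenzyme that cleaves NAD to nicotinamide, ADP-ribose and cyclic ADP-ribose, and it had the largest change of the tested members. It was counted 6969, 8590 and 3883 times in the LPS libraries and 316, 899 and 200 times in the LPS/siponimod libraries. In CPM these are 188, 223 and 104 against 6.80, 20.1 and 4.87. The lowest LPS library was still above the highest LPS/siponimod library, and the third library was the lowest within each condition. Its log2 FC was -4.02 (SE 0.64, 95% interval -5.57 to -2.46, adjusted p = 0.0107, edgeR quasi-likelihood test), and the same-numbered pairs gave -4.78, -3.47 and -4.41. Without LPS/siponimod replicate 1 the adjusted p was 0.0558 at a log2 FC of -3.78. Other genes were ranked by how closely their log2 CPM followed that of Cd38 over the 6 libraries. The candidates were 10815 genes with a mean of at least 1 CPM outside the wider list of purine and NAD genes. The first 5 were Cd244, Rab5c, Ndufv2, Klhl36 and a gene listed only as ENSRNOG00000015967. Their Pearson r was 0.9998 for Cd244, which encodes a receptor of the SLAM family, and 0.998 for each of the others. Cd244 itself went from a mean of 76.7 to 10.2 CPM (log2 FC -2.91), and the log2 FC of the other 4 lay between -1.48 and -0.65. These points share the 2 conditions and the same libraries, so that r describes a common pattern over them.

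Bst1, the paralogue of Cd38 that lies next to it with 0 genes between them in the RefSeq annotation, was not called. It was counted 2455, 1727 and 1339 times in LPS and 3052, 2192 and 1626 times in LPS/siponimod. The groups overlapped, and the log2 FC of 0.07 had an interval from -0.61 to 0.75 (adjusted p = 0.869, edgeR quasi-likelihood test). Nampt, which encodes the rate-limiting enzyme of NAD salvage from nicotinamide, was counted 14034, 12740 and 10812 times in LPS and 20264, 14645 and 16318 times in LPS/siponimod. Its levels overlapped at 379, 331 and 291 CPM against 436, 328 and 398 CPM. The log2 FC was 0.22 with an interval from -0.21 to 0.64 (adjusted p = 0.377, edgeR quasi-likelihood test), so that its interval lies far above that of Cd38. The log2 ratio of Cd38 to Nampt within a library was -1.01, -0.57 and -1.48 in LPS and -5.99, -4.02 and -6.34 in LPS/siponimod. Every ratio with siponimod was below every ratio without it, with a difference of means of -4.43. The exact two-sided permutation test gave p = 0.1, the smallest that 3 against 3 libraries allow, and 0.2 after adjustment over 4 such ratios.

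More genes of the NAD synthesis list, which also holds the NAD kinase genes, were called lower than higher. Of 12 tested genes of this list, Nampt included, 1 was called higher and 4 were called lower (13.6% and 11.7% of all tested genes), with a median log2 FC of -1.13. Kmo, the gene of kynurenine 3-monooxygenase in the route from tryptophan, was counted 3147, 6501 and 2782 times in LPS and 385, 1612 and 541 times in LPS/siponimod. The conditions were separate, with the second library the highest in each, and the log2 FC was -2.51 (SE 0.63, adjusted p = 0.0313, edgeR quasi-likelihood test). Haao, which acts later in the same route, went from 57, 101 and 95 counts to 2, 17 and 3 counts (log2 FC -3.73, SE 0.82). Naprt and Nadsyn1, which encode enzymes of the route from nicotinic acid, had log2 FC of -2.28 and -1.22 and were called lower too. The call of Naprt was lost with limma-voom (adjusted p = 0.0611) and without the filter on low counts (0.0503, edgeR quasi-likelihood test). Over the 6 fits that left out 1 library each, Haao ranged from -5.21 to -3.28, Kmo from -3.36 to -2.05 and Naprt from -2.82 to -1.94, and each of them held its call in 2, those without LPS replicate 3 and without LPS/siponimod replicate 2. The list then gave between 0 and 7 lower calls, while 1.44% to 14.5% of all genes tested in the 6 fits were called lower. Nadk2, the gene of the mitochondrial NAD kinase, was the one called higher, and its call held in 3 of those 6 fits. That enzyme uses NAD to make NADP and does not make NAD. Nadk2 had 651, 356 and 221 counts in LPS and 2017, 1704 and 2298 counts in LPS/siponimod. Its log2 FC was 2.07 (SE 0.41, adjusted p = 0.0176), without overlap, while Nadk, the gene of the cytosolic NAD kinase, had a log2 FC of -0.59 that did not pass (adjusted p = 0.0765, both edgeR quasi-likelihood tests). With the replicate block Nadk passed (adjusted p = 0.0213), as did Afmid, a further gene of the kynurenine route (0.0548 without and 0.00958 with the block, log2 FC -1.81 and -1.71).

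The genes of NAD-consuming enzymes moved in both directions. Among 22 tested, Cd38 included, 5 were called higher and 8 lower (13.6% and 11.7% of all tested genes), and the median log2 FC was 0.17. Leaving out single libraries gave 1 to 5 higher and 0 to 8 lower calls (3.72% to 15.9% and 1.44% to 14.5% of all genes tested in these fits). Of 7 sirtuins, which remove acyl groups from proteins at the expense of NAD, 4 were called higher, and 1 to 4 when a library was left out. Sirt1, a nuclear deacetylase, had 530, 456 and 643 counts in LPS and 1893, 1544 and 1792 counts in LPS/siponimod. All its LPS/siponimod libraries lay above all LPS libraries, at a log2 FC of 1.45 (SE 0.18, adjusted p = 0.00724, edgeR quasi-likelihood test), and it held in all 6 of those fits. Sirt2, Sirt5 and Sirt6 were higher with log2 FC of 0.72, 1.48 and 0.74 and held in 1, 4 and 2 of them, whereas Sirt7 was lower (-0.63), and Sirt3 and Sirt4 did not pass. Of 13 tested genes of the PARP family of ADP-ribosyl transferases, 6 were called lower and 1 higher, and 0 to 6 were lower when a library was left out. Parp12 had the lowest log2 FC of these, -1.25 (SE 0.20, adjusted p = 0.011, edgeR quasi-likelihood test), with 12369, 11234 and 9486 counts in LPS and 4786, 6901 and 4665 counts in LPS/siponimod. Parp9, Parp10 and Parp14, known like Parp12 as interferon-inducible genes, had log2 FC of -0.92, -1.16 and -0.76. Parp1 and Parp2, the DNA damage sensors of the family, had -0.74 and -0.72, and Parp16, of the endoplasmic reticulum, was higher at 0.94. Parp6 had an adjusted p of 0.0351 (edgeR quasi-likelihood test) at a log2 FC of 0.39, which is under the fold change required, and the tankyrase genes Tnks and Tnks2 had log2 FC of 0.27 and 0.30 that did not pass.

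**Figure D3:**
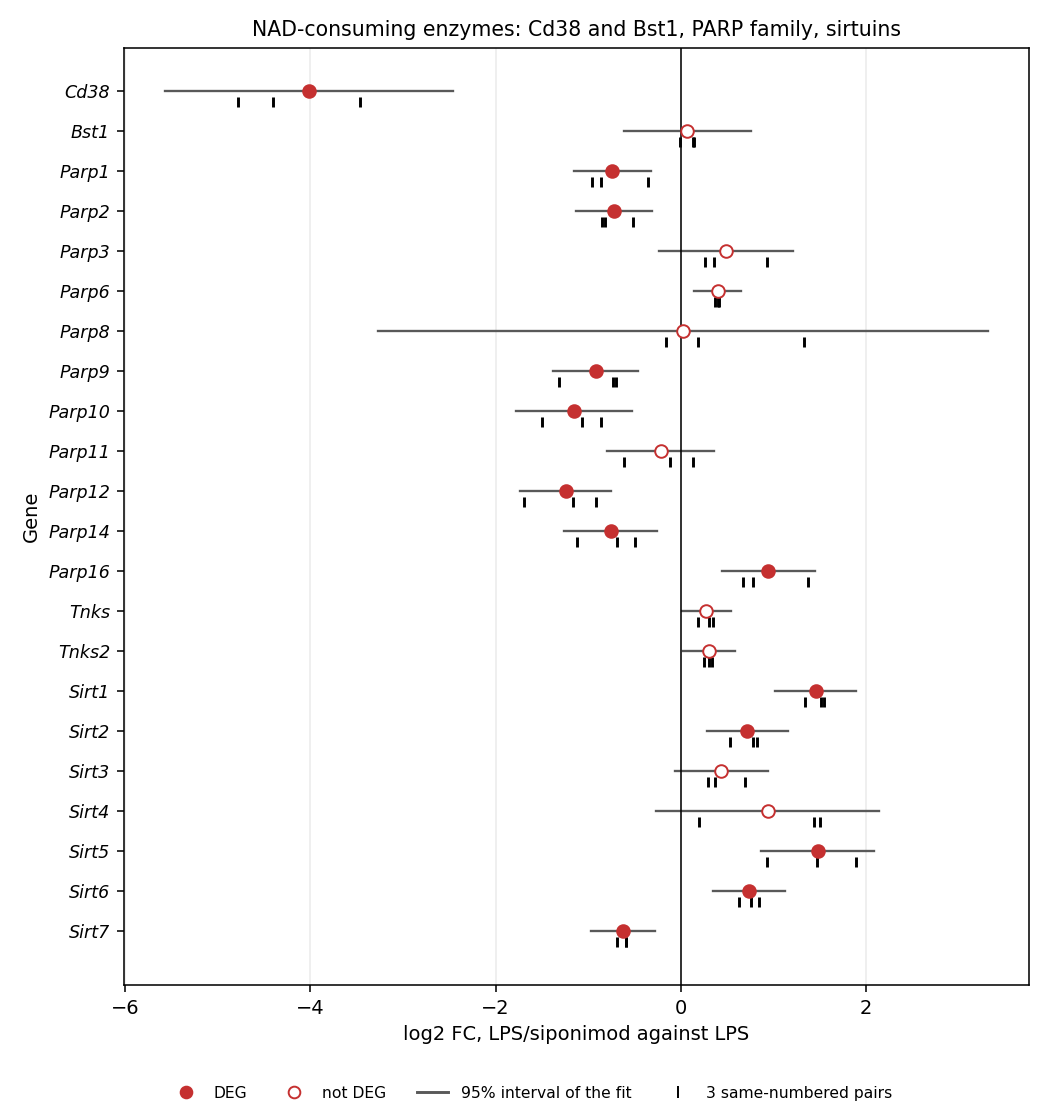
Log2 FC of LPS/siponimod against LPS for the 22 tested genes of NAD consumption, with 95% intervals, filled where called, and ticks for the 3 same-numbered pairs. Cd38 lies farthest below 0 at -4.02, called PARP genes lie mostly below 0 and called sirtuins mostly above it.

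Channels opened by products of the CD38 reaction were described with it. Trpm2 encodes a calcium channel gated by ADP-ribose and was counted 8258, 6704 and 4781 times in LPS and 1332, 2027 and 1033 times in LPS/siponimod. Its conditions did not overlap, and the log2 FC was -2.40 (SE 0.31, adjusted p = 0.00733, edgeR quasi-likelihood test). It was the only one called of 4 tested genes of this group (11.7% of all tested genes were lower). Tpcn1, a two-pore channel gene of the endolysosome, had a log2 FC of -0.72 that passed with the replicate block (adjusted p = 0.0696 without and 0.0234 with it) and in 1 of 6 fits without 1 library, and Tpcn2 had a log2 FC of 0.05 (interval across 0; adjusted p = 0.817).

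Entpd1 encodes CD39, the ectoenzyme that takes ATP and ADP down to AMP. It was counted 1380, 879 and 190 times in LPS and 390, 451 and 150 times in LPS/siponimod. The conditions overlapped because the third LPS library, at 5.11 CPM, lay below the first and second LPS/siponimod libraries at 8.39 and 10.1 CPM, although every pair was lower with siponimod (-2.14, -1.17 and -0.48). The log2 FC of -1.56 had an interval from -3.31 to 0.20 (adjusted p = 0.151, edgeR quasi-likelihood test). With the replicate block it was -1.29 and passed (adjusted p = 0.0396), as it did without LPS replicate 3 (-2.02, 0.0264) and without both libraries numbered 3 (-1.69, 0.0363).

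Nt5e, which encodes CD73 and completes the path from AMP to adenosine, was called lower with less spread. It had 2937, 2994 and 3745 counts in LPS and 1056, 1802 and 1232 counts in LPS/siponimod. No LPS/siponimod library reached the lowest LPS library, at a log2 FC of -1.47 (SE 0.24, adjusted p = 0.0109, edgeR quasi-likelihood test). Enpp3, an ectonucleotide pyrophosphatase gene, was the other called ectonucleotidase gene, with means of 15.9 ± 8.70 and 2.32 ± 1.86 CPM (SD, n = 3) and a log2 FC of -2.78 (adjusted p = 0.0336, edgeR quasi-likelihood test). Its log2 FC ran from -3.62 to -2.23 when a library was left out, and the call held in 2 of 6 such fits, those without LPS replicate 3 and without LPS/siponimod replicate 3. All 6 tested genes of this list had a negative log2 FC, and their median was -1.51. Of them 2 were called lower (11.7% of all tested genes), and 1 to 3 when single libraries were left out (1.44% to 14.5%). With the replicate block 5 of the 6 were called lower, against 16.4% of all tested genes. Enpp2 (autotaxin) then had a log2 FC of -4.02, against -3.09 without the block (adjusted p = 0.132), and Acp3 had -0.93 against -0.90 (adjusted p = 0.239, edgeR quasi-likelihood tests).

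Ada encodes adenosine deaminase, which turns adenosine into inosine. It was counted 3267, 3706 and 8285 times in LPS and 1603, 2341 and 1957 times in LPS/siponimod, or 88.1, 96.2 and 223 against 34.5, 52.4 and 47.7 CPM. The third LPS library was far above the others of its condition, and the lowest LPS library was still above all LPS/siponimod libraries. The log2 FC was -1.60 (SE 0.40, interval -2.57 to -0.63, adjusted p = 0.0319, edgeR quasi-likelihood test), and the pairs gave -1.35, -0.87 and -2.22. Leaving out LPS replicate 3 gave a log2 FC of -1.03, which still passed (adjusted p = 0.0194), and leaving out both libraries numbered 3 gave -1.08 (0.0459). The call was lost without LPS replicate 2 (adjusted p = 0.0675) and without LPS/siponimod replicates 1, 2 or 3 (0.125, 0.0596 and 0.0938). Adk encodes adenosine kinase, the enzyme that competes for adenosine by phosphorylating it, and was lower too, with means of 11.1 ± 4.09 and 5.34 ± 0.103 CPM (SD, n = 3) and a log2 FC of -1.05 (adjusted p = 0.0403, edgeR quasi-likelihood test). That call held in 1 of the 6 fits that left out a library, the one without LPS replicate 3 (adjusted p = 0.0144), was lost in the other 5 (0.0908 to 0.14), and was also lost with limma-voom and without the filter on low counts. The log2 ratio of Ada to Adk was 3.54 ± 1.23 in LPS and 3.04 ± 0.294 in LPS/siponimod (SD, n = 3), and the ratios overlapped (exact two-sided permutation p = 0.9, 1 after adjustment over 4 ratios).

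RefSeq held the 250 bases before an annotated start for 7 of the 10 genes, in the build GRCr8, which is a newer assembly than the mRatBN7.2 used for mapping. Of these windows, 3 lay outside the gene's own annotated span (Ada, Adora2b and Adora3), and those of Ada and Adora2b are shown because both carry GC boxes although Ada was well counted and Adora2b close to 0 in the same libraries. Capitals mark GC boxes (GGGCGG on either strand; overlapping matches included). The Ada window is chr3:172842284-172842533 on the minus strand, and the Adora2b window is chr10:47439462-47439711 on the plus strand, each read 5′ to 3′ in the direction of the gene.
Ada: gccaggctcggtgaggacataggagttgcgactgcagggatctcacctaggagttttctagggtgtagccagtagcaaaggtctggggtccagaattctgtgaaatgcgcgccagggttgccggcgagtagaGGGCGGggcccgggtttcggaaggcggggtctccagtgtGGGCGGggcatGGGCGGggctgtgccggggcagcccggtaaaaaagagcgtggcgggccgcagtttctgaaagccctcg
Adora2b: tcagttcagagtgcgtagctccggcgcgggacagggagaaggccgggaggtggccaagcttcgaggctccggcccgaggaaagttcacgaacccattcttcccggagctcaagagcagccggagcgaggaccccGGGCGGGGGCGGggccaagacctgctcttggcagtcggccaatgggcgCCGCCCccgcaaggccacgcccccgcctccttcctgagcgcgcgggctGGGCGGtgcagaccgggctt
Ada had 3 matches and Adora2b had 4, at a GC content of 64.0% and 71.2%. Among the windows not shown, P2rx7 had 2 matches, and Adora3, Cd38, Entpd1 and P2rx4 had 0. Of 27457 promoter windows of that table, 32.4% held at least 1. The letters GAAANNGAA (interferon response), GGANTTTCC (NF-kB), TGACGTCA (cAMP response) and TTGCATCA (ATF4 with C/EBP) were also searched on both strands and were in 0 of the 7 windows, against 7.99%, 1.06%, 1.70% and 0.656% of all windows. A match of letters describes the window and is not a measured binding site.

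Of 9 tested genes of purine turnover, Ada and Adk included, 6 were called lower and 1 higher (11.7% and 13.6% of all tested genes), with a median log2 FC of -1.05. The number called lower was between 1 and 6 when single libraries were left out (1.44% to 14.5% of all genes tested in those fits). Pnp, which encodes purine nucleoside phosphorylase and acts on the inosine made by adenosine deaminase, had 41132, 39399 and 39036 counts in LPS and 11350, 18719 and 10319 counts in LPS/siponimod. The LPS libraries lay close together and far above the others, at a log2 FC of -1.80 (SE 0.25, adjusted p = 0.00834, edgeR quasi-likelihood test). Hprt1 and Aprt, the purine base salvage genes, had log2 FC of -1.44 and -1.39, and Ahcy, the gene of the hydrolase that releases adenosine from S-adenosylhomocysteine, had -0.71. Ampd3, an AMP deaminase gene, went the other way, with 4990, 5274 and 6433 counts in LPS and 23828, 18461 and 20668 counts in LPS/siponimod. Its lowest LPS/siponimod library was above its highest LPS library, and the log2 FC was 1.69 (SE 0.17, adjusted p = 0.00568, edgeR quasi-likelihood test). Ampd2 and Gda did not pass, at log2 FC of 0.23 and -0.04.

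Transporters gave 1 call in each direction among 10 tested genes, a share near that of all tested genes (13.6% higher and 11.7% lower). With the replicate block Slc28a2 (log2 FC -1.50, adjusted p = 0.028) and Lrrc8a (0.76, 0.0264) were called as well. Slc29a3, a nucleoside transporter gene of lysosomes and other intracellular membranes, was counted 2602, 2605 and 1918 times in LPS and 772, 1078 and 757 times in LPS/siponimod (log2 FC -1.68, SE 0.20, adjusted p = 0.00655, edgeR quasi-likelihood test). Slc17a9, which encodes the transporter that loads ATP into vesicles, was counted 523, 604 and 375 times in LPS and 3100, 1771 and 2030 times in LPS/siponimod (log2 FC 1.97, SE 0.26, adjusted p = 0.00733, edgeR quasi-likelihood test). For neither gene did the conditions overlap, and the third LPS library was the lowest of its condition for both. Panx1, which encodes an ATP-releasing channel, and its relative Panx2 had log2 FC of opposite sign, -0.55 and 0.88, that did not pass (adjusted p = 0.0904 and 0.0854, edgeR quasi-likelihood test).

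None of the adenosine receptor genes was called in the fit of all 6 libraries, and they differed in how well they could be measured. Adora2a, a Gs-coupled receptor gene, was counted 1928, 1298 and 3403 times in LPS and 2146, 2704 and 2561 times in LPS/siponimod, or 52.0, 33.7 and 91.5 against 46.2, 60.6 and 62.4 CPM. The LPS libraries spread on both sides of the LPS/siponimod libraries. The log2 FC of -0.07 had an interval from -0.94 to 0.81 (adjusted p = 0.904, edgeR quasi-likelihood test), and its sign turned with the replicate block (0.035) and without both libraries numbered 3 (0.32). Adora1, a Gi-coupled receptor gene outside the 10, had 367, 530 and 2834 counts in LPS and 1117, 983 and 2272 counts in LPS/siponimod, both libraries numbered 3 being the highest of their condition (log2 FC 0.02, SE 0.83). Without both of these Adora1 was called higher, at a log2 FC of 0.96 (adjusted p = 0.046, edgeR quasi-likelihood test).

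Adora3, a Gi-coupled receptor gene known in rodents from microglia and mast cells, was counted 54, 102 and 5 times in LPS and 2, 9 and 2 times in LPS/siponimod. The first and second LPS libraries were high, and the third lay at 0.134 CPM within the range of the LPS/siponimod libraries (0.043 to 0.202 CPM). It did not pass the filter on low counts. In a fit without that filter its log2 FC was -3.82 (SE 1.19, adjusted p = 0.0748, edgeR quasi-likelihood test). It passed without LPS replicate 3 (-4.34, adjusted p = 0.016) and without both libraries numbered 3 (-4.04, adjusted p = 0.039). It did not pass without LPS/siponimod replicate 1, 2 or 3 (adjusted p = 0.193, 0.0699 and 0.154, edgeR quasi-likelihood tests). Adora3 overlaps Tmigd3 in the RefSeq annotation, and the latter had 9, 7 and 0 counts in LPS and 2 in each LPS/siponimod library, so that counts may be shared between them. Adora2b, the low-affinity Gs-coupled receptor gene, had 8, 4 and 5 counts in LPS and 6, 5 and 8 counts in LPS/siponimod. These counts overlapped fully, and at this depth a difference was not detectable (log2 FC -0.07, SE 0.67, in the fit without the filter). The log2 ratio of Adora2b to Adora2a was -8.12 ± 0.732 and -8.19 ± 0.316 (SD, n = 3; exact two-sided permutation p = 1).

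The P2X genes among the 10 differed from each other in sign, and neither was called. P2rx4, an ATP-gated channel gene known from microglia in pain states, was counted 12484, 8501 and 7070 times in LPS and 10734, 6632 and 5727 times in LPS/siponimod. The conditions overlapped, and the first library was the highest of each. Its log2 FC was -0.53 (SE 0.29, interval -1.24 to 0.19, adjusted p = 0.215, edgeR quasi-likelihood test), and the pairs gave -0.54, -0.57 and -0.45. With the replicate block the log2 FC of P2rx4 was -0.52 (SE 0.12, adjusted p = 0.028, edgeR quasi-likelihood test). It then missed the call only because the change was under the fold change required. P2rx7, whose channel opens at high ATP and is known for triggering the NLRP3 inflammasome, was counted 363, 284 and 76 times in LPS and 1214, 238 and 201 times in LPS/siponimod. The first LPS/siponimod library, at 26.1 CPM, was far above the 4.90 to 5.33 CPM of the others of its condition, which lay within the LPS range of 2.04 to 9.79 CPM. The log2 FC of 0.92 (SE 0.84, interval -1.11 to 2.95, adjusted p = 0.433, edgeR quasi-likelihood test) was -0.33 without LPS/siponimod replicate 1. The log2 ratio of P2rx7 to P2rx4 was -5.10, -4.89 and -6.51 in LPS and -3.14, -4.79 and -4.82 in LPS/siponimod. The ratios with siponimod were all above those without it, by 1.25 on average (exact two-sided permutation p = 0.1, 0.2 after adjustment over 4 ratios). That difference ran from 0.70 to 1.55 when single libraries were left out. Of the P2X genes outside the 10, only P2rx1 and P2rx3 were tested, and neither was called; P2rx1 was lower with the replicate block (log2 FC -1.62, adjusted p = 0.031).

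P2ry6 encodes the receptor for uridine diphosphate (UDP), which is known to start phagocytosis in microglia, and it was the most strongly lowered of the 8 tested genes of the 10 after Cd38. It was counted 12667, 15247 and 11510 times in LPS and 1077, 4430 and 1985 times in LPS/siponimod, or 342, 396 and 310 against 23.2, 99.2 and 48.4 CPM. The LPS libraries all lay far above the LPS/siponimod libraries, with means of 349 ± 43.5 and 56.9 ± 38.7 CPM (SD, n = 3). Relative to the mean, the LPS/siponimod libraries differed more among themselves. The log2 FC was -2.62 (SE 0.52, interval -3.88 to -1.36, adjusted p = 0.0177, edgeR quasi-likelihood test), and with the replicate block it was -2.84 (adjusted p = 0.00917). The call was lost without LPS replicate 1 (adjusted p = 0.0507), LPS replicate 2 (0.0689), LPS/siponimod replicate 3 (0.07) or both libraries numbered 3 (0.0674), with a log2 FC between -2.62 and -2.51 in these fits.

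P2ry2, whose receptor responds to ATP and uridine triphosphate, lies next to P2ry6 with 0 genes between them in the RefSeq annotation, and it changed in the opposite direction. It was counted 3281, 2377 and 3503 times in LPS and 24480, 8591 and 13450 times in LPS/siponimod. Its conditions were separate, and the first LPS/siponimod library was the highest for P2ry2 and the lowest for P2ry6. The log2 FC was 2.10 (SE 0.39, adjusted p = 0.0152, edgeR quasi-likelihood test), and the adjusted p was 0.0689 without LPS replicate 2 and 0.0501 without LPS/siponimod replicate 3. P2ry4, a uridine nucleotide receptor gene, was called lower with means of 15.7 ± 1.48 and 9.36 ± 0.926 CPM (SD, n = 3) and a log2 FC of -0.75 (adjusted p = 0.019, edgeR quasi-likelihood test).

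The ADP receptor gene P2ry12, a marker of resting microglia, was counted 585, 607 and 43 times in LPS and 18, 106 and 13 times in LPS/siponimod. The third LPS library lay below the second LPS/siponimod library, so that the conditions overlapped. The log2 FC was -3.40 (adjusted p = 0.0788) and passed with the replicate block (-3.36, adjusted p = 0.0226, both edgeR quasi-likelihood tests). P2ry13, a further ADP receptor gene, and P2ry14, the gene of a receptor for UDP-glucose, were likewise low in LPS replicate 3, with 668, 583 and 34 and with 175, 146 and 25 counts. Along with P2ry1, also an ADP receptor gene, both were called lower with the block (adjusted p = 0.0342, 0.0158 and 0.00874) but not without it on all 6 libraries; P2ry13 also passed without LPS replicate 3 (0.0339) and P2ry1 without LPS/siponimod replicate 2 (0.0308). Over the P2Y list, 1 of 8 genes was called higher and 2 lower (13.6% and 11.7% of all tested genes), and the median log2 FC was -1.79. With the block 6 were called lower (16.4%), and 0 to 5 when single libraries were left out (1.44% to 14.5%).

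**Figure D4:**
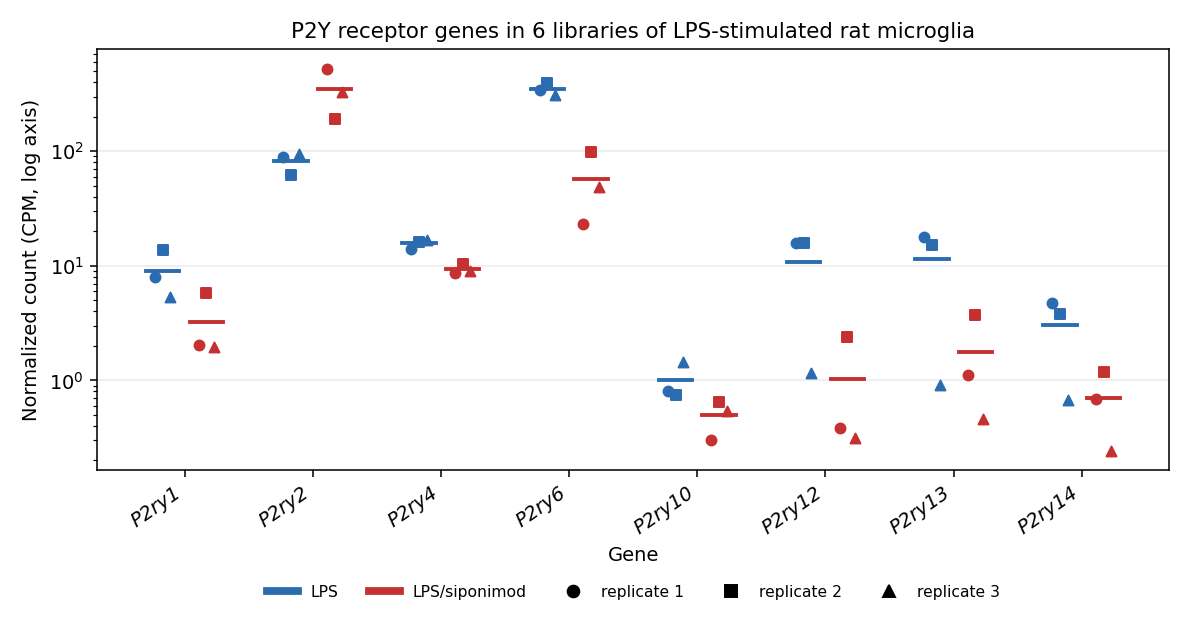
Level of the 8 P2Y receptor genes in CPM (log axis) in each library, with 1 point per library, a marker shape per replicate number and a line at the mean of each condition. P2ry2 is the one gene with all LPS/siponimod libraries above all LPS libraries, and the third LPS library is low for P2ry12, P2ry13 and P2ry14.

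Over the whole purine and NAD list, 77 of the 99 genes present were tested, of which 9 were called higher and 24 lower, with a median log2 FC of -0.72. By the same rule 13.6% of all tested genes were higher, above the share in this list, and 11.7% were lower, below it. Without the 10 genes, 9 were called higher and 21 lower of 69, and with the replicate block the whole list gave 10 and 36 (17.7% and 16.4% of all tested genes). Without both libraries numbered 3, 8 of the genes outside the 10 were called higher and 16 lower (11.1% and 8.17% of all genes tested in that fit), with 11 calls lost (among them P2ry2, P2ry4, Kmo and Haao) and 5 gained (Adora1, Afmid, Lrrc8a, P2ry13 and P2ry14). Of these calls, 7 held in all 6 fits that left out 1 library each, namely Pnp, Nt5e, Slc29a3 and Trpm2 as lower and Ampd3, Slc17a9 and Sirt1 as higher. Cd38, P2ry6 and Ada held in 5, 3 and 2 of the 6.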

How the data were processed

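The authors trimmed and mapped single-end reads of captured mRNA in CLC Genomics Workbench and deposited the unnormalized number of reads (counts) of every gene, 1 table a library; the submitters' processing notes name mRatBN7.2 and bcl2fastq (2.20.0.422). The use of strand and of reads matching several genes is not given in the sources used here, so overlapping or near-identical genes are uncertain. One unnamed entry with 0 counts was left out of 1 table.

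Counts were analysed in R 4.3.3 with edgeR 4.0.16: filterByExpr (minimum count 10, total 15), TMM and glmQLFTest with condition as the only term. The standard error is the log2 FC divided by the root of F, and intervals cover 95%. Pair differences and ratios use log2 CPM with a prior count of 2. A single count equals 0.027 CPM in the first LPS library; depth limits cover counting error only. The labels state no shared source for equal replicate numbers, but deviations from the condition means correlated within them (r = 0.42, 0.545 and 0.611). The number was therefore also fitted as a block. Between numbers r was -0.534 to 0.0856. Deviations from a condition mean sum to 0, so these values had to be negative on average and are not separate evidence. Replicates were described as biological; p-values measure the spread between these cultures. Alternatives were RLE scaling, DESeq2 1.42.0, limma-voom (limma 3.58.1), the likelihood ratio test, other filters, a prior count of 0.5 and leaving out each library; leaving out both libraries numbered 3 was added after the data were seen. The fitting steps were tested on simulated data.

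The genes, lists and tests were chosen with earlier results of these data known. Named genes were the 10, each DEG of a list of purine and NAD genes written from general knowledge, its genes with an unadjusted p under 0.05, and up to 3 well-counted others per group. Cell type markers and the 5 genes outside that list most like Cd38 were named too. P2ry13, Enpp2, Acp3, P2rx1, P2rx3, Sirt3, Sirt4 and Tmigd3 complete small groups or overlaps and, like the GC box and the split into sirtuins and PARP genes, were chosen after values or sequences were seen. Gene order and promoter windows come from RefSeq, build GRCr8, matched by symbol.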

Additional observations from a re-analysis of the deposited data

How the results depend on the processing

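Over 51 genes, RLE scaling and a mean of at least 1 CPM changed no call, DESeq2 added 5, the likelihood ratio test 3 and the replicate block 8, limma-voom added 1 and lost 2, and testing without the filter lost 3. Higher DEG totals came with the replicate block, in which same-numbered libraries are paired: Entpd1 passed (log2 FC -1.29), and the signs of Adora2a (0.035) and Gda (0.11) turned, as with limma-voom (0.041 and 0.12), and all 3 lower members stayed called. Without both libraries numbered 3, Entpd1 passed (-1.69), P2ry6 no longer did (-2.59) and Adora2a turned (0.32). Leaving out single libraries gave 469 to 1941 higher and 182 to 1772 lower DEGs over all genes, 1 to 5 lower members, and 3 to 9 higher and 5 to 33 lower genes of the wider list. The log2 FC ranged from -4.88 to -3.67 for Cd38, -1.81 to -1.03 for Ada, -2.02 to -0.92 for Entpd1 and -3.30 to -2.24 for P2ry6. It ranged from -0.80 to -0.23 for P2rx4, 0.11 to 0.33 for Nampt, -0.33 to 0.40 for Adora2a and -0.33 to 1.37 for P2rx7. Signs also turned within -0.53 to 1.52 for Adora1, -0.43 to 0.21 for Gda, -0.15 to 0.36 for Bst1, -0.029 to 0.15 for Tpcn2, -0.49 to 0.18 for the ratio of Adora2b to Adora2a and -0.96 to 0.20 for that of Ada to Adk. The causes were not tested. Adora2b and Adora3 gave no value in most settings, and Adora2b had at most 8 counts in a library. Adora3 was tested and called without LPS replicate 3, and was tested but not called without LPS/siponimod replicate 1, 2 or 3.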
